A study of Mus musculus with 8 samples.

Results

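Loss of Sox4 was compared with its presence in villus-enriched epithelial cells of the mouse intestine, using 4 of the 8 sequenced libraries of the series. The 4 were chosen by their labels alone: the 2 Sox4cKO libraries and the 2 control libraries of the CD44minus sort. Control mice were Sox4fl/fl, meaning that both Sox4 alleles carry loxP sites. Sox4cKO mice had the same floxed alleles plus 1 copy of vilCre (Sox4fl/fl:vilCre+/-), a Cre recombinase under the villin promoter that acts in the intestinal epithelium from E10.5 of embryonic life. Every animal therefore carried floxed alleles and only the Sox4cKO animals carried Cre, so Cre itself and the deletion cannot be told apart. All were male littermates aged 6 weeks, and each library came from 50000 cells that were sorted as CD326-positive (the epithelial protein Epcam) and CD44-negative. The labels name biological replicates, so the spread between the libraries of a group includes differences between animals.

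The small-intestinal villus is covered mainly by enterocytes, which digest and absorb nutrients at a brush border, with goblet cells and rarer endocrine and tuft cells among them. These cells are born in the crypts, where stem and progenitor cells carry the surface receptor CD44, and they lose it as they move onto the villus. Sox4 is a SoxC transcription factor gene known from crypt progenitors and secretory precursors, so a villus gate samples cells that lie downstream of where the gene is mostly used. In bulk RNA of such a sort, fewer cells of a type and less RNA per cell cannot be told apart.

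The 4 libraries differed in depth and in background, and one of them stood apart. Gene counts, the reads assigned to any gene, were 886194 and 2327002 in control replicates 1 and 2 and 1175251 and 6963345 in Sox4cKO replicates 1 and 2, the order of all value sets of 4 below. HTSeq assigned no gene to 96.3, 92, 96.6 and 76.8% of uniquely placed reads. Olfactory receptor genes, which are not characteristic of gut epithelium and serve here as a gauge of reads that fall anywhere in the genome, took 2572, 943, 2841 and 132 CPM, the usual unit of counts relative to a library's total. Scaled by exon length, a background of that height would make up 16.5, 6.16, 18.2 and 0.833% of all gene counts. With GENCODE exon lengths for the olfactory genes instead of RefSeq spans, the shares were 5.56, 2.04, 6.14 and 0.285%. The higher estimate is used below. Sox4cKO replicate 2 was thus the deepest library and the one with the least background, and Sox4cKO replicate 1 had the most. A count of 0 allows up to 3 reads, which is 2.67, 1.48, 1.93 and 0.663 CPM once libraries were put on 1 scale by TMM, edgeR's trimmed mean of M values, as all CPM below are. Such limits and all intervals below cover counting error only.

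Over all tested genes, each library but control replicate 2 was closer to a library of the other genotype than to that of its own. Over the 17247 genes tested, the median absolute difference in log2 CPM was 1.53 between the 2 Sox4cKO libraries and 0.64 between the 2 controls. It was 0.29 between control replicate 1 and Sox4cKO replicate 1. Control replicate 2 lay 0.68 from Sox4cKO replicate 1 and 0.76 from Sox4cKO replicate 2. In 3608 genes (20.9%) both controls lay between the Sox4cKO libraries with replicate 2 highest, and in 4201 genes (24.4%) they lay between them with replicate 1 highest. When only genes with at least 10 times the predicted background were scaled and compared (6481 genes tested), the 6 distances shrank to between 0.21 and 0.38.

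**Figure D1:**
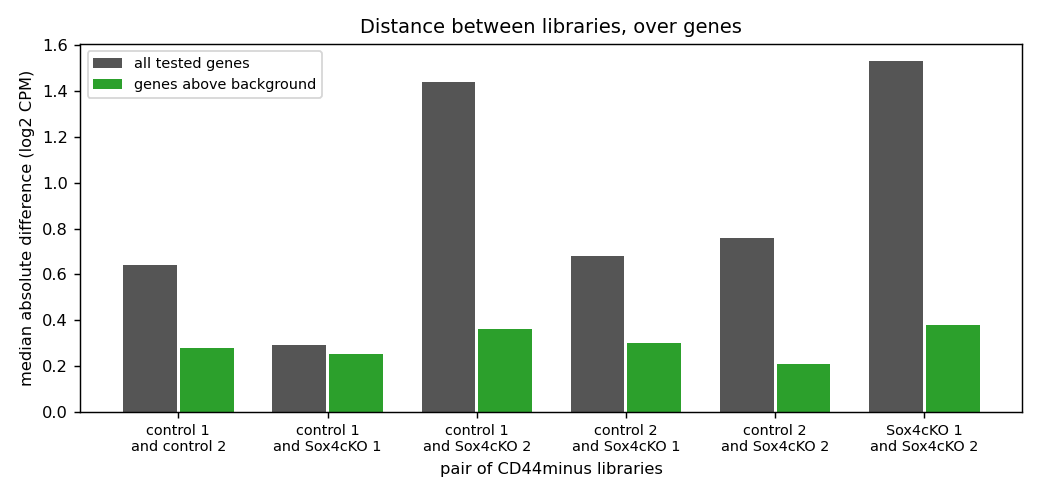
Median absolute difference in log2 CPM (vertical axis) for each of the 6 pairs of CD44minus libraries, over all 17247 tested genes (grey bars) and over the 6481 tested genes above background (green bars). The grey bars run from 0.29 to 1.53 and are highest for the pairs of Sox4cKO replicate 2 with the 2 libraries of most background, whereas the green bars lie between 0.21 and 0.38.

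The gate held villus epithelium by its markers, together with abundant RNA of Paneth cell genes. Summed over 9 villus enterocyte markers such as Alpi, Sis and Apoa4, the level was 16330, 30910, 13430 and 43370 CPM, against 436, 522, 486 and 531 CPM for 8 crypt markers such as Lgr5, Olfm4 and Mki67, of which Ascl2 was at 0 in at least 1 library. Goblet cell markers (5 genes) gave 3408, 8681, 3975 and 11560 CPM. Paneth cell markers (4 genes), from a crypt cell type, gave 9012, 18550, 5610 and 19780 CPM. Of these, Lyz1 was at 5758, 10940, 3433 and 12250 CPM. In the crypt-enriched CD44plus libraries, scaled over all 8, Lyz1 was at 1724, 1194, 2144 and 1660 CPM. Mmp7 had no such difference (97.8, 266, 115 and 251 against 113, 173, 227 and 157 CPM). Lymphocyte markers (5 genes) summed to 102, 147, 111 and 211 CPM, myeloid markers (4 genes) to 55.1, 50.2, 69.5 and 46.8 CPM and stromal markers (4 genes) to 72.9, 40.8, 99.1 and 19.2 CPM, and the haemoglobin gene Hba-a1 was at 0 reads in every library. No marker sum placed both Sox4cKO libraries on the same side of both controls, and the epithelial, goblet and Paneth sums were lower in control replicate 1 and Sox4cKO replicate 1 than in the other 2 libraries.

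Given this unevenness, 3 criteria of increasing looseness were applied to each gene. A gene was called at an adjusted p under 0.05 in edgeR's quasi-likelihood test with Benjamini-Hochberg adjustment. It was counted as separated where the exact Poisson 95% intervals of both libraries of 1 group lay wholly above those of both of the other and the higher group exceeded its predicted background. It was counted as non-overlapping where only the order of the 4 CPM values did so. With 2 libraries against 2, an exact two-sided permutation test of 1 gene cannot go below p = 0.333, so separation is a description and carries no p.

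No gene was called by edgeR: the smallest adjusted p was 1, and 2 of 17247 genes (0.0116%) had an unadjusted p under 0.05, with a biological coefficient of variation of 0.76. DESeq2 also called 0 genes, with 7 at an unadjusted p under 0.05. By limma-voom 0 genes were called higher and 252 lower, in a fit whose median log2 fold change over all genes was -0.30. Separation held for 7 genes higher in Sox4cKO (0.0406% of those tested) and 3 lower (0.0174%). Non-overlap held for 667 genes higher (3.87%) and 1033 lower (5.99%), a split that became 997 and 729 with DESeq2 size factors, which moved the median log2 fold change over all genes from -0.04 to 0.10.

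These counts depended on which libraries entered. Without Sox4cKO replicate 1, edgeR called 59 genes higher and 4830 lower, with the lone remaining library assumed to vary as the controls do, whereas it called 0 without any other library. A single library in a group also makes separation easier to reach: 21 genes higher and 62 lower separated without control replicate 1, 126 and 39 without control replicate 2, 3911 and 3878 without Sox4cKO replicate 1, and 66 and 304 without Sox4cKO replicate 2. The median log2 fold change of the olfactory receptor genes was -2.75 without Sox4cKO replicate 1, against -0.56 with all 4 libraries. The genes described first below are those that separated with all 4 libraries.

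Sox4 itself, the deleted gene, was barely read in this gate. Its counts were 10 and 21 reads in control (8.89 and 10.3 CPM) and 4 and 1 reads in Sox4cKO (2.58 and 0.221 CPM). Both Sox4cKO values lay below both controls, but the Poisson intervals of control replicate 1 (4.8 to 18.4 reads) and Sox4cKO replicate 1 (1.09 to 10.2 reads) overlapped on the scaled level, so the gene was not separated. Summed over each group and scaled, the ratio of Sox4cKO to control was 0.0842, with an exact counting interval of 0.0255 to 0.218. The fitted log2 fold change was -2.87 with a standard error (SE) of 2.13 (edgeR adjusted p of 1). It was -5.17 without Sox4cKO replicate 1, a fit in which the olfactory receptor genes had a median of -2.75. The background predicted for this single-exon gene of 4795 bases (chromosome 13, 28948919 to 28953713, minus strand, GRCm38) was 9.2, 9.03, 13.4 and 3.66 reads, as much as the reads seen in control replicate 1 and more than those in both Sox4cKO libraries. In Sox4cKO replicate 1 the prediction exceeded the upper bound of the count (10.2 reads), so it can be too high for a gene.

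The genes higher in both Sox4cKO libraries included enzymes that make reactive nitrogen and oxygen species. Nos2, the inducible nitric oxide synthase (chromosome 11, 78920787 to 78960254), was at 53.4 and 164 CPM in the controls and 288 and 645 CPM in the Sox4cKO pair. Both Sox4cKO levels lay above both controls, and the controls themselves differed more than 3 fold. The fitted log2 fold change was 2.10 (SE 1.11, edgeR unadjusted p of 0.0756 and adjusted p of 1), and it ran from 1.39 without Sox4cKO replicate 2 to 3.22 without control replicate 2.

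Duox2, the epithelial dual oxidase that releases hydrogen peroxide at the luminal surface (chromosome 2, 122279247 to 122298449), showed the same order. It was at 81.8 and 210 CPM in the controls against 305 and 533 CPM in the Sox4cKO pair (log2 fold change 1.52, SE 1.07, edgeR adjusted p of 1). Its log2 fold change was 1.01 without control replicate 1 and 2.44 without control replicate 2. Duoxa2, which encodes the factor that Duox2 needs to mature and reach the surface, was at 8.89 and 29 CPM against 30.9 and 57.5 CPM. Its groups did not overlap in order, but the intervals of control replicate 2 and Sox4cKO replicate 1 did, so Duoxa2 was not separated (log2 fold change 1.2, SE 0.82). Nos2 and Duox2 were separated under all 16 settings in which separation was recomputed. Some of these settings left out a library or dropped the background rule, which mostly loosened the rule that had picked the genes.

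The RefSeq start sites of Duox2 and Duoxa2 lie 673 bases apart on opposite strands, so the pair is transcribed away from a shared interval. The RefSeq start of Duox2 (122298227) lies inside the GENCODE span given above, which ends at 122298449. The windows below are shown because both genes had the same order of groups. They run from 250 bases before to 50 bases after each start in RefSeq on GRCm38.p6, 5′ to 3′ on the strand of the gene (Duox2, chr2:122298178-122298477, minus strand; Duoxa2, chr2:122298650-122298949, plus strand). Capitals mark the letters TATAAA, searched on both strands and found in 13.6% of the 32851 promoter windows of the table. 1 match was found in Duoxa2, 30 bases before the start, and 0 in Duox2.
Duox2: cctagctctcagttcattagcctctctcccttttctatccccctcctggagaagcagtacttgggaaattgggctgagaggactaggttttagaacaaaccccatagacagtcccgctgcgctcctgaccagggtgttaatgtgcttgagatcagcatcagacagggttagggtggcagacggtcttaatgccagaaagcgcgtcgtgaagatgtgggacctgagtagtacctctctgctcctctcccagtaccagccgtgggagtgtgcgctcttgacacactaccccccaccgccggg
Duoxa2: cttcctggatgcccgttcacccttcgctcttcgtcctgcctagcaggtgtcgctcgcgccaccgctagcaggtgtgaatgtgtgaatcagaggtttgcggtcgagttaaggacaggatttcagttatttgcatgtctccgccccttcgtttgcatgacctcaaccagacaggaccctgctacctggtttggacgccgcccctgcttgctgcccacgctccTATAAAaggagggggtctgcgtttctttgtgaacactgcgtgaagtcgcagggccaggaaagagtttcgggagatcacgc

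The epithelial defence list, which holds these 3 genes, had 13 members tested. It was chosen with earlier results of these data known, so its count of higher genes was partly set in advance. Groups did not overlap in the 3 (Nos2, Duox2 and Duoxa2), all higher, and in 0 that were lower, beside 3.87 and 5.99% of all genes. A positive log2 fold change was found in 10, with a median of 0.71 against -0.04 over all genes, and the median was 0.02 without Sox4cKO replicate 2. Reg3b and Reg3g, secreted antibacterial lectins, were at 1181 and 4030 and at 895 and 3341 CPM in control. They reached 2714 and 10050 and 2166 and 8242 CPM in Sox4cKO. In both genes control replicate 2 lay above Sox4cKO replicate 1, so the groups overlapped. Pigr, the receptor that carries IgA across the epithelium, was at 2207 and 5051 against 1922 and 6833 CPM. Reg3b and Reg3g are paralogs, and reads that fit both may have been split or dropped, so their separate counts are uncertain.

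Mt1, which encodes a metallothionein that binds zinc and copper (chromosome 8, 94179082 to 94180327), was also higher in both Sox4cKO libraries. It was at 59.6 and 120 CPM in the controls and 173 and 766 CPM in the Sox4cKO pair. Sox4cKO replicate 2 stood far above the other 3 libraries, and without it the log2 fold change was 0.94, against 2.39 with all libraries (SE 1.14, edgeR unadjusted p of 0.0499 and adjusted p of 1). Without Sox4cKO replicate 1 it was 3.10. Mt2, its neighbour with the same function, was at 16 and 31 CPM against 9.66 and 39.8 CPM. Here the controls lay between the Sox4cKO libraries and the log2 fold change was 0.08 (SE 0.89). The difference between the 2 genes was not tested.

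Of the 9 genes of the metallothionein and zinc list, all tested, Mt1 was the only one whose groups did not overlap, and the list's median was 0.38 (-0.57 without Sox4cKO replicate 2). The zinc importers Slc39a14 (121 and 246 against 85 and 270 CPM) and Slc39a5 (95.1 and 170 against 85 and 269 CPM) had the controls between the Sox4cKO libraries. The RefSeq start sites of Mt1 and Mt2 lie 6471 bases apart on the same strand. Their windows are shown because 1 neighbour separated and the other did not (Mt1, chr8:94178839-94179138; Mt2, chr8:94172368-94172667; plus strand, RefSeq, GRCm38.p6). Capitals mark the core of the metal response element, spelled TGCACNC or TGCGCNC and searched on both strands. Mt1 held 3 matches (23 bases before the RefSeq start, and 3 and 21 after it) and Mt2 held 4 (223, 128 and 50 bases before and 5 after). Only 1 start per gene was listed, and other starts were not looked at. The positions and numbers of matches hold for these windows alone. The core was found at least once in 25.7% of the 32851 windows and 4 or more times in 0.517%.
Mt1: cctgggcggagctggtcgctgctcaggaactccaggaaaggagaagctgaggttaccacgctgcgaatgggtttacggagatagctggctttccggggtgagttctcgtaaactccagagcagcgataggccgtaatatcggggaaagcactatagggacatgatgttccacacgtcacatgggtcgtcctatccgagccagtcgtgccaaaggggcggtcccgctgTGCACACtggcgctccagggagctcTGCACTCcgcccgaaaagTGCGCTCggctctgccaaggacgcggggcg
Mt2: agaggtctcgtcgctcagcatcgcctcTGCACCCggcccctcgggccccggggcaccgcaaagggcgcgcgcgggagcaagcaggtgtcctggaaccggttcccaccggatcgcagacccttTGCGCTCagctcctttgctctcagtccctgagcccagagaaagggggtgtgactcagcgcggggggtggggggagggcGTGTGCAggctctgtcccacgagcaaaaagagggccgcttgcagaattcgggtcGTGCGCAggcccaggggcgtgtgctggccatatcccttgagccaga

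The remaining separated genes that were higher act in nucleotide and sugar metabolism and in adhesion. Pnp2, a purine nucleoside phosphorylase (chromosome 14, 50955992 to 50964749), had 3 and 12 reads in control (2.67 and 5.9 CPM) and 29 and 191 reads in Sox4cKO (18.7 and 42.2 CPM). The groups were 2.79 apart on the log2 scale (SE 1.03, edgeR unadjusted p of 0.0147 and adjusted p of 1). This difference ran from 2.03 without Sox4cKO replicate 2 to 3.58 without control replicate 2. Its paralog Pnp, the main enzyme of this step, was at 76.5 and 105 against 45.1 and 170 CPM, with the controls between. Reads that fit both paralogs may have been split or dropped, so the level of Pnp2 is uncertain.

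Hk2, a hexokinase that catalyses the first step of glycolysis, was at 56.9 and 66.4 CPM in the controls and 101 and 120 CPM in the Sox4cKO pair (log2 fold change 0.84, SE 0.77). Pfkfb3, whose product raises the activator of phosphofructokinase, was at 68.5 and 114 against 151 and 244 CPM (1.11, SE 0.89). Both were separated, with an edgeR adjusted p of 1. The log2 fold change of Pfkfb3 ran from 0.72 without Sox4cKO replicate 2 to 1.61 without control replicate 2. Pfkfb3 was no longer separated without control replicate 1, and Hk2 lost its separation when only genes above background were scaled (108 and 81 against 205 and 103 CPM).

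Other genes of glycolysis gave no common order. In a list of 21 written after values had been seen, 19 were tested, of which 3 did not overlap and were higher (Hk2, Pfkfb3 and the glucose transporter Slc2a1) and 1 was lower (Pfkm), beside 3.87 and 5.99% of all genes, with a median of 0.27. Ldha, the lactate dehydrogenase, was at 286 and 465 against 234 and 818 CPM, and Pkm, the pyruvate kinase, at 275 and 509 against 165 and 678 CPM, both with the controls between.

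Itgb6, the integrin chain that pairs with Itgav to activate latent TGF-beta, was at 20.5 and 24.6 CPM in the controls and 43.1 and 39.8 CPM in the Sox4cKO pair (0.87, SE 0.75, edgeR adjusted p of 1). Its predicted background in Sox4cKO replicate 1 was 17 of 67 reads, and it was separated under 9 of the 16 settings. Its partner Itgav was at 40 and 60 against 43.1 and 70 CPM, in which the order of the groups was mixed.

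Among the genes lower in both Sox4cKO libraries, Akp3 had the widest gap. It encodes an intestinal alkaline phosphatase of the brush border (chromosome 1, 87124973 to 87127912) and was at 347 and 203 CPM in the controls and 70.8 and 99 CPM in the Sox4cKO pair. The lowest control bound lay 1.69 fold above the highest Sox4cKO bound. The log2 fold change was -1.69 (SE 0.95, edgeR unadjusted p of 0.092 and adjusted p of 1), and Akp3 was separated under all 16 settings. Alpi, the neighbouring and more abundant phosphatase, was at 641 and 1035 against 362 and 1269 CPM, with the controls between and a log2 fold change of -0.04 (SE 1.35). The 2 genes are close paralogs, and reads that fit both may be missing from each.

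S100g, a calcium-binding protein of absorptive enterocytes and a target of vitamin D (chromosome X, 162961992 to 162964599), was at 104 and 54.1 CPM in the controls and 14.2 and 36.5 CPM in the Sox4cKO pair. The log2 fold change was -1.62 (SE 0.77, edgeR unadjusted p of 0.0506 and adjusted p of 1), and separation was lost with DESeq2 size factors. The log2 fold change was -1.07 without control replicate 1 and -2.46 without Sox4cKO replicate 2. Of 9 genes of vitamin D response and calcium absorption, a list written after values had been seen, S100g was the only one whose groups did not overlap (median -0.02). Vdr, the vitamin D receptor, was at 253 and 427 against 176 and 704 CPM, and the calcium pump Atp2b1 at 149 and 236 against 113 and 330 CPM.

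Calcoco2 (chromosome 11, 96099326 to 96111964) was the third. It had 16 and 26 reads in control (14.2 and 12.8 CPM) and 3 and 2 reads in Sox4cKO (1.93 and 0.442 CPM), where 4.54 and 1.24 reads of background were predicted. Both Sox4cKO libraries were thus at the level of background, and summed over the groups the scaled ratio of Sox4cKO to control was 0.0621, with an exact counting interval of 0.0192 to 0.157. The fitted log2 fold change was -3.57 (SE 1.76, edgeR adjusted p of 1). It was -4.78 without Sox4cKO replicate 1, a fit in which the olfactory receptor genes had a median of -2.75. In the CD44plus libraries, the crypt-enriched sort of the same series, Calcoco2 lay between 0.894 and 2.37 CPM in all 4, and the groups overlapped.

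**Figure D2:**
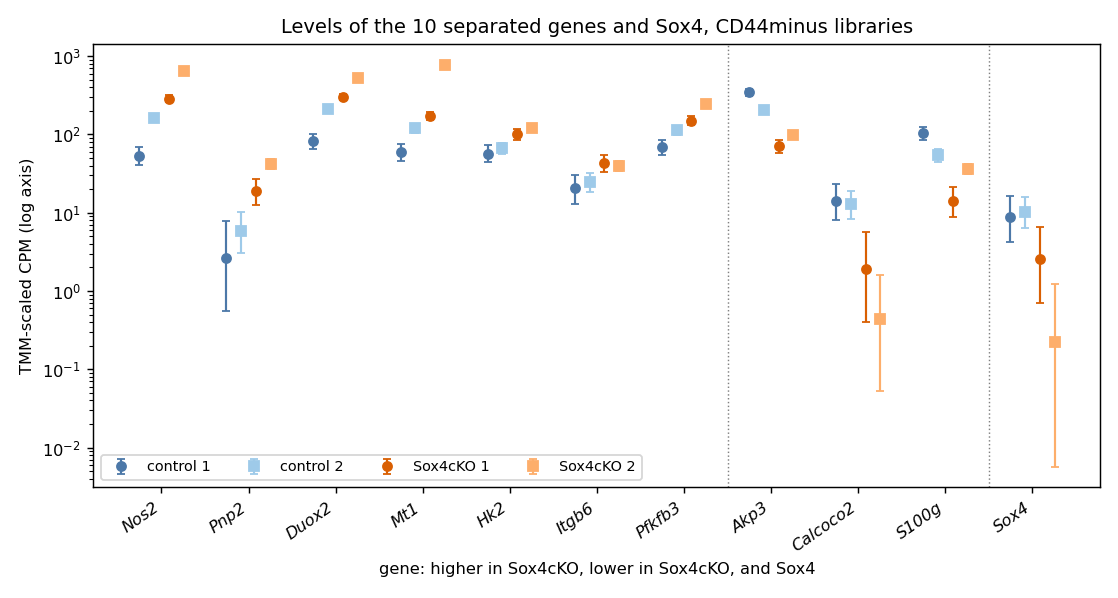
TMM-scaled CPM on a log axis for the 7 genes that were higher, the 3 that were lower and Sox4, in each of the 4 CD44minus libraries, with exact Poisson 95% intervals of the counts. For the first 10 genes no interval of 1 group touches one of the other, from Nos2 (53.4 and 164 against 288 and 645 CPM) to S100g (104 and 54.1 against 14.2 and 36.5 CPM), whereas for Sox4 the intervals of control replicate 1 and Sox4cKO replicate 1 overlap.

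Just outside the limit of separation lay genes whose intervals overlapped slightly. On the higher side these were Prkacb, a catalytic chain of protein kinase A (10.7 and 11.8 against 25.8 and 22.8 CPM, overlap of 0.02 on the log2 scale) and Rap2b, a small GTPase (12.5 and 10.8 against 27.7 and 24.5 CPM, overlap of 0.06). On the lower side they were the zinc finger genes Prdm16 (127 and 125 against 85.6 and 98.3 CPM, overlap of 0.01) and Rest (92.5 and 95.9 against 64.4 and 67.8 CPM, overlap of 0.05). Just inside it were Pfkfb3 and Itgb6 with gaps of 0.03 and 0.04, and S100g with 0.07. Prkacb and Rap2b were near predicted background in control replicate 1 (12 and 14 reads, where 10 and 13 were predicted).

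Predicted background made up 16.5 and 18.2% of 2 libraries and 0.833% of another (5.56, 6.14 and 0.285% by GENCODE lengths). The comparison was therefore repeated on genes whose reads were at least 10 times the higher prediction, with scaling over these genes alone. This setting was chosen after the data had been seen, and its sum of reads is weighted towards the deepest library. The biological coefficient of variation fell from 0.76 to 0.265. edgeR again called 0 of 6481 genes, with 75 (1.16%) at an unadjusted p under 0.05, of which 43 were higher. Separation held for 24 genes higher (0.37%) and 23 lower (0.355%), and non-overlap for 783 (12.1%) and 740 (11.4%). Of the 10 genes above, 7 separated here too, a count that holds Pnp2, which reached the limit only through the Sox4cKO libraries (3 and 12 reads in control, where 2.63 and 2.58 were predicted from background). Itgb6 and Calcoco2 were not among the genes tested, and Hk2 no longer separated. Among the 24 higher genes, Mgat4c also reached the limit only through Sox4cKO (26 and 97 reads in control, where 9.16 and 8.99 were predicted). Jhdm1d had 87 and 270 reads in control where 18.4 and 18 were predicted, just under the limit. With a limit of 5 times the background, 13 genes separated in each direction.

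In this scaling the fold changes of Nos2 and Mt1 had smaller SEs. Nos2 was at 101 and 200 against 582 and 551 CPM (log2 fold change 1.87, SE 0.33, edgeR unadjusted p of 0.000404) and Mt1 at 113 and 146 against 351 and 654 CPM (1.95, SE 0.34). Akp3 was at 658 and 247 against 143 and 84.6 CPM (-2.01, SE 0.46) and S100g at 197 and 66 against 28.7 and 31.2 CPM (-2.08, SE 0.49). The 2 Sox4cKO libraries were close to each other for Nos2 and S100g, while the 2 controls remained apart for Akp3 and S100g. All edgeR adjusted p were 1.

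Of the 40 genes that separated only in this scaling, those named from here on were chosen after their values had been seen. Those on the higher side included inhibitors of NF-kappaB and receptors of innate immunity. Nfkbia, the inhibitor that NF-kappaB induces against itself, was at 113 and 131 CPM in the controls and 197 and 263 CPM in the Sox4cKO pair (log2 fold change 0.91, SE 0.24). Tnfaip3, another feedback inhibitor of that pathway, was at 105 and 131 against 190 and 192 CPM (0.68, SE 0.23). Nlrc4, part of the inflammasome that detects flagellin, was at 142 and 164 against 225 and 218 CPM, and Il22ra1, the epithelial chain of the interleukin-22 receptor, at 278 and 351 against 438 and 463 CPM. Each of these 4 had both Sox4cKO libraries above both controls, with fold changes under 2.

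Of 20 genes of NF-kappaB and interleukin-22 response, a list also written after values had been seen, 14 were in this scaling. The list holds Nfkbia, Tnfaip3, Nlrc4 and Il22ra1, named above as higher. Its count of higher genes was therefore partly set in advance. Groups did not overlap in 7 that were higher and 2 that were lower, beside 12.1 and 11.4% of all genes above background, with a median of 0.26 against 0.01 over those genes. The subunit Relb (77.6 and 78 against 113 and 104 CPM) and the coactivator Bcl3 (42.2 and 56.4 against 80.8 and 98.6 CPM) were among the former, and the receptor chain Il10rb (116 and 136 against 82.1 and 110 CPM) among the latter. Rela, the main activating subunit, was at 67.5 and 66 against 58.6 and 63.8 CPM. With all genes scaled, 1 of 18 tested was higher without overlap and 0 were lower, beside 3.87 and 5.99% of all genes.

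Reg3b and Reg3g separated here, at 2241 and 4914 against 5492 and 8591 CPM and at 1697 and 4073 against 4385 and 7043 CPM. Their controls differed more than the nearest libraries of the 2 groups did, and the log2 fold changes of 0.98 had SEs of 0.59 and 0.58. Gsr, the glutathione reductase, was at 82.7 and 151 against 228 and 259 CPM (1.02, SE 0.29). Of the defence list, 12 genes were in this scaling, of which 6 were higher without overlap (Reg3b, Reg3g, Saa1, Nos2, Duox2 and Duoxa2) and 2 lower (Reg1 and Reg4), beside 12.1 and 11.4% of all genes above background. Nos2 and Duox2 had already been picked as separated, so this count was partly set in advance. Reg1, a secreted lectin of another branch of the Reg family, was at 491 and 422 against 212 and 331 CPM, and Reg4 at 97.9 and 138 against 59.9 and 58.3 CPM.

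The lower side included enzymes and transporters of nutrient handling. Pck1, the enzyme that commits carbon to gluconeogenesis, was at 393 and 381 CPM in the controls and 121 and 226 CPM in the Sox4cKO pair (log2 fold change -1.12, SE 0.30). Pnliprp2, a relative of pancreatic lipase, was at 224 and 205 against 87.3 and 108 CPM (-1.12, SE 0.23). In both genes the 2 controls were close to each other and Sox4cKO replicate 1 was lowest. The brush border peptidase Mme was at 537 and 475 against 257 and 378 CPM, the amino acid transporter Slc6a20a at 169 and 174 against 93.8 and 121 CPM and the fatty acid ligase Slc27a2 at 191 and 176 against 106 and 129 CPM. Lct, the lactase, was at 2040 and 2334 against 1263 and 1787 CPM and Alpi at 1216 and 1262 against 734 and 1084 CPM, both with control replicate 1 and Sox4cKO replicate 2 close to each other.

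**Figure D3:**
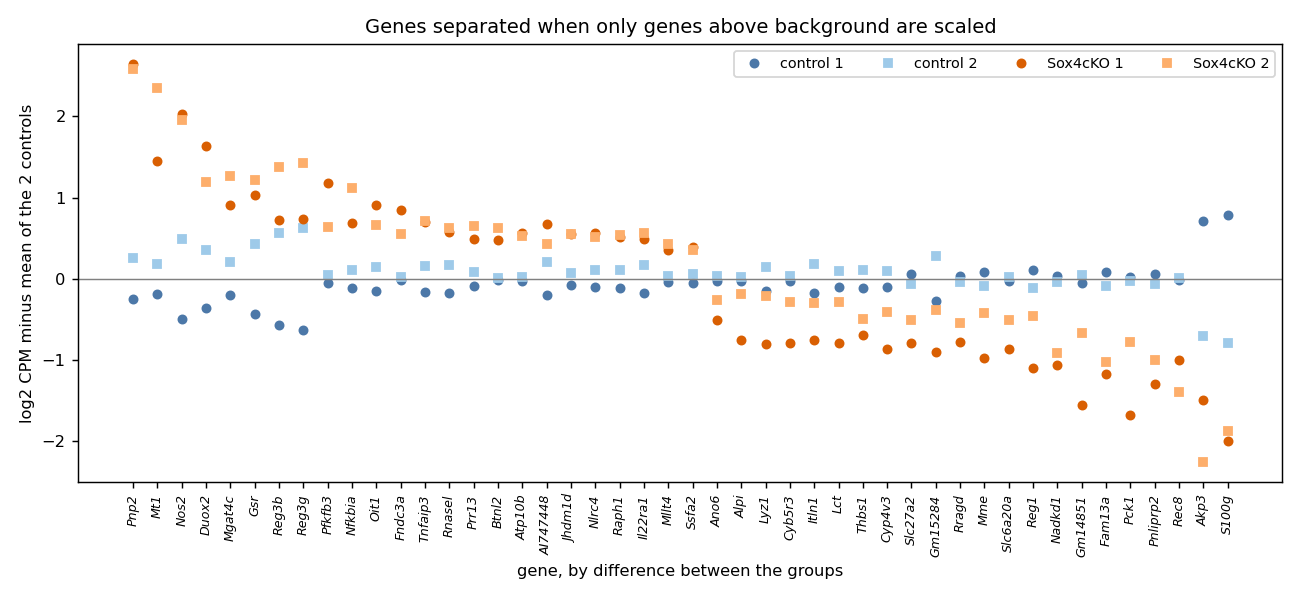
For 46 of the 47 genes that separated when only genes above background were scaled (horizontal axis, by difference between the groups), the log2 CPM of each CD44minus library minus the mean of the 2 controls (vertical axis). The 24 genes on the left have both Sox4cKO libraries above both controls and the 22 on the right below, and the 2 controls are widely apart for Akp3 and S100g.

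Several genes of Paneth cells, a cell type of the crypt, lay lower in both Sox4cKO libraries on the same scale. Lyz1, the Paneth cell lysozyme, was at 10930 and 13340 CPM in the controls and 6949 and 10470 CPM in the Sox4cKO pair and the lectin Itln1 at 5593 and 7179 against 3772 and 5136 CPM, each with an SE above 0.5. Of 17 Paneth genes, 8 did not overlap and were lower and 1, Pla2g2a, was higher, with a median of -0.28, beside 11.4 and 12.1% of all genes above background. With all genes scaled, 0 of 18 did so in either direction, and Lyz1 was at 5758 and 10940 against 3433 and 12250 CPM, with the controls between. The Defa genes and the unnamed genes near them are close copies, and their separate counts are uncertain.

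Enterocyte programs ordered the 4 libraries in 1 way that did not follow genotype. With all genes scaled, the summed level of 20 brush border enzymes was 14100, 26670, 11360 and 37360 CPM, that of 24 genes of fat absorption 14790, 27090, 12290 and 37570 CPM and that of 24 transporters 3305, 5770, 3039 and 8474 CPM. In each the controls lay between a low Sox4cKO replicate 1 and a high Sox4cKO replicate 2. Among the genes of these 3 lists only the fatty acid receptor Cd36 (lower, 18.7 and 28 against 9.66 and 12.6 CPM) and the glutamate transporter Slc1a1 (higher, 58.7 and 63.4 against 64.4 and 164 CPM) did not overlap, beside 3.87% of all genes higher and 5.99% lower. Medians were 0.22, 0.25 and 0.41, and without Sox4cKO replicate 2 they were -0.69, -0.83 and -0.39. The most abundant members had the same order: Anpep, an aminopeptidase, was at 2705 and 5863 against 2683 and 8428 CPM, Apoa4, an apolipoprotein of chylomicrons, at 4222 and 7939 against 3264 and 10300 CPM, and Slc5a1, the sodium-glucose transporter, at 1152 and 2147 against 907 and 3123 CPM.

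Above background, where 12.1% of all genes were higher and 11.4% lower without overlap, the same sums came closer together. Brush border enzymes gave 26710, 32490, 22930 and 31910 CPM, with 4 of 19 genes lower without overlap (Lct, Treh, Alpi and Mme) and 0 higher. Fat absorption genes had 3 of 22 lower (Fabp2, Sar1b and Apobec1) and 0 higher, and transporters 6 of 22 lower and 4 higher, the latter including the sodium-proton exchanger Slc9a3 (326 and 413 against 532 and 454 CPM). Genes of drug metabolism, such as the glutathione transferase Gstm1 (55.7 and 27.6 against 18.2 and 17 CPM), had 8 of 23 lower and 1 higher, with a median of -0.25. Microvillus structure genes had 0 of 20 lower and 1 higher. The proximal small intestine list, which includes Lct, had 2 of 8 lower and 0 higher, and its sum was 7746, 8482, 5406 and 8094 CPM. The list for the distal small intestine and colon had 1 of 8 higher (Car4, a carbonic anhydrase) and 0 lower, with a sum of 1265, 1751, 1431 and 2156 CPM and a median of 0.25. Whether the stretch of gut sampled differed between animals was not tested.

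Cholesterol synthesis genes more often lay higher in both Sox4cKO libraries than lower. With all genes scaled, 5 of 21 were higher without overlap, among them Mvk, Mvd, Fdps and Fdft1, and 0 lower, beside 3.87 and 5.99% of all genes. A positive log2 fold change was found in 19, with a median of 0.58 that was 0 without Sox4cKO replicate 2. The list of 10 epithelial cell genes, of which none was without overlap, had a median of 0.63 in the same fit. Above background, 9 of 16 were higher and 1, Nsdhl, was lower (12.1 and 11.4% of all genes), and the sums were 1112 and 1132 CPM in the controls and 1444 and 1389 CPM in the Sox4cKO pair. Srebf2, the transcription factor of this pathway, was at 174 and 184 against 222 and 231 CPM and Sqle, the squalene epoxidase, at 45.6 and 51 against 73 and 69.1 CPM. In both genes the controls were close to each other and both Sox4cKO libraries lay above them. No gene of the list separated.

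**Figure D4:**
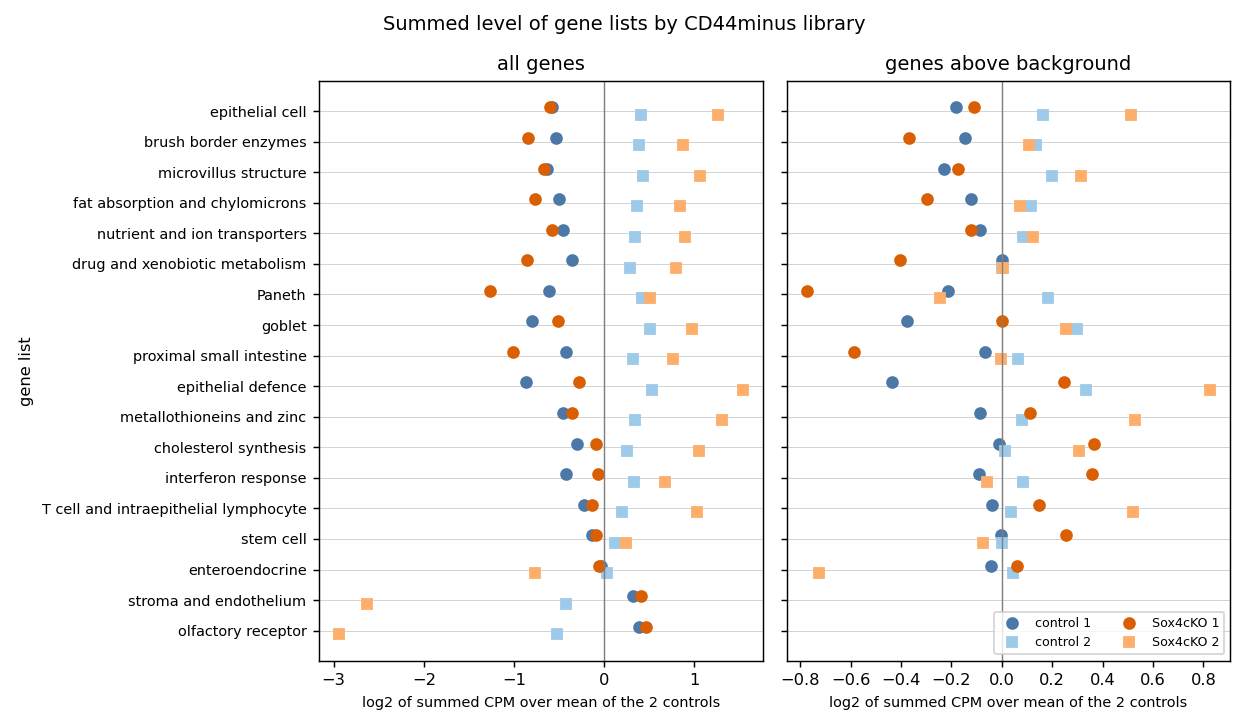
Summed CPM of 18 gene lists in each CD44minus library, as log2 of the ratio to the mean of the 2 controls, with all genes scaled (left) and with only genes above background summed and scaled (right, where stroma and olfactory receptor lists have no member). On the left Sox4cKO replicate 2 is the highest library for every list except enteroendocrine, stroma and olfactory receptor genes, and on the right cholesterol synthesis is a list in which both Sox4cKO libraries (1444 and 1389 CPM) lie above both controls (1112 and 1132 CPM).

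Of the stem cell, enteroendocrine and mitosis lists, 8 of 24, 7 of 29 and 4 of 28 tested genes were above background, and with all genes scaled their order is set beside 5.99% of all genes that were lower without overlap and 3.87% that were higher. Of 24 stem cell genes tested, 5 were lower without overlap, among them Myc (21.3 and 17.7 against 13.5 and 10.4 CPM) and the Wnt feedback gene Znrf3 (24.9 and 25.6 against 16.7 and 14.1 CPM), and 0 were higher. Sox9, the Sox gene of crypts and Paneth cells, was at 121 and 93.4 against 89.5 and 66.3 CPM. Of 29 enteroendocrine genes, 3 were lower (Pcsk2, Nts and Nkx2-2) and 0 higher, with a median of -0.53 (0.11 without Sox4cKO replicate 2), and of 28 mitosis genes 6 were lower and 1 higher. Among the olfactory receptors, 5 of 56 tested were lower without overlap and 0 higher, with a median of -0.56 (0.62 without Sox4cKO replicate 2). Myc and Znrf3 were not among the genes above background. How far background sets the order of these low genes was not tested.

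Other cell types and cell stress varied with single libraries. The summed level of 22 genes of T cells and intraepithelial lymphocytes was 361, 483, 384 and 864 CPM, highest in Sox4cKO replicate 2. The granule proteases Gzma (57.8 and 98.9 against 53.4 and 257 CPM) and Gzmb (39.1 and 62 against 34.8 and 154 CPM) followed that order. Dissociation stress genes summed to 3201, 5648, 2697 and 9879 CPM. With all genes scaled neither sum placed both Sox4cKO libraries above both controls, but above background the lymphocyte sum did (472, 498, 538 and 696 CPM). The background limit pools reads over all 4 libraries, so genes high in 1 group can enter through that group. Cd8a entered in this way (18, 48, 24 and 165 reads, where 6.01, 5.9, 8.78 and 2.39 were predicted from background). The order of this sum can therefore be partly set by the limit. The part of lymphocytes and stress in the levels of Nos2, Mt1 and Nfkbia was not tested. Interferon response genes had 3 of 26 higher without overlap (Isg15, Oas1g and Mx2) and 0 lower, beside 3.87 and 5.99% of all genes, with a median of 0.33 (-0.03 without Sox4cKO replicate 2).

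The effect of genotype was also set against that in the CD44plus gate, in 1 edgeR fit over all 8 libraries. The test of the difference between gates called 0 of 20427 genes, with 50 at an unadjusted p under 0.05. Pnp2 had log2 fold changes of 3.25 in CD44minus and 3.13 in CD44plus, where it was at 1.52 and 0.731 against 11.6 and 9.19 CPM (edgeR adjusted p of 1 for the difference). S100g was lower in both gates (-1.10 and -1.71, CD44plus 47.3 and 18.6 against 8.68 and 11.5 CPM). For Nos2 the fold changes were 2.56 and 0.63 and for Mt1 2.93 and 0.66, and neither difference passed (edgeR adjusted p of 1, unadjusted 0.119 and 0.0986). The animal numbers of the deposited tables are the same for both gates, so these values come from the same mice and are no second set of replicates. The fit above takes no account of this. With the animal as a block, a fit chosen after the data had been seen, edgeR again called 0 of 20427 genes, with 214 at an unadjusted p under 0.05. The differences between gates were then 1.90 for Nos2 and 1.77 for Mt1 on the log2 scale (edgeR adjusted p of 1, unadjusted 0.147 and 0.234).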

How the data were processed

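RNA of sorted CD44minus cells was read in 4 libraries. The authors deposited raw read counts per gene symbol, made with bcl2fastq 2.17.4, Trimmomatic 0.36, STAR 2.2.5b and HTSeq 0.6.1p1 on the mm10 build, per the submitters' processing notes. Per the labels' protocols, the kit was a strand-specific one for total RNA of very low input. Which strand was counted is not given in the sources used here, so overlapping and antisense genes are uncertain. Summary lines of HTSeq were removed (76.8 to 96.6% of uniquely placed reads had no gene). Between 9.95 and 12.1% of gene counts fell on Rn45s, a ribosomal RNA gene. Of 23366 symbols, 98.5% were matched to GENCODE on GRCm38.

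The 4 libraries were fitted in R 4.3.3 with edgeR 4.0.16 (filterByExpr with a minimum count of 10, TMM scaling with factors 1.29, 0.881, 1.35 and 0.651, quasi-likelihood test, Benjamini-Hochberg threshold 0.05). Fold changes are Sox4cKO over control. Background per base came from olfactory receptor genes of at most 1200 bases and was multiplied by each gene's exon length. Alternatives used limma 3.58.1, DESeq2 1.42.0, other scalings and filters, and each library left out. The pipeline was tested on simulated counts.

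Named genes were Sox4, called genes, up to 15 separated genes in each direction, and of each list the 3 most abundant members and any called or separated. Other genes in the text (those next to the limit of separation, partners and paralogs, members of lists whose groups did not overlap, and genes that separated only above background) were outside this rule and were chosen after their values had been seen. The members and lists were chosen with earlier results of these data known. Control and Sox4cKO libraries of one number come from different animals and in the labels share only the number. Whether they also shared handling was not tested. A few genes are not reported here by name.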

Additional observations from a re-analysis of the deposited data

How the results depend on the processing

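The 10 separated genes kept the sign of their fold change in every alternative fitted. Nos2, Duox2, Mt1 and Akp3 were separated under all 16 settings, Pnp2 under 15, S100g under 13, Hk2 and Pfkfb3 under 12, Calcoco2 under 11 and Itgb6 under 9. These genes had been picked by separation with all 4 libraries. Leaving out a library or dropping the background rule mostly loosened that rule, so sign and separation there were largely set in advance. With 99% intervals, 4 of the 10 stayed separated. Counts moved more. Genes separated, higher and lower, were 12 and 14 by total gene counts, 3 and 1 with 99% intervals, 24 and 23 among genes at 10 times the background and 13 and 13 at 5 times, against 7 and 3. Lower separated genes numbered 7 with a minimum count of 30 and 14 after background reads were subtracted. Genes lower without overlap numbered 1986 without a filter and 474 with the minimum count of 30, which test more and fewer genes, and those higher 1332 in the fit of all 8 libraries. limma-voom called 252 genes lower. Where not stated by construction, the cause was not tested. The settings based on multiples of the background, and olfactory lengths from GENCODE, were chosen after seeing the data.

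Leaving out 1 library at a time, edgeR called 0 to 59 genes higher and 0 to 4830 lower, 21 to 3911 separated higher and 39 to 3878 lower, and 1575 to 6953 lay higher and 2284 to 9055 lower without overlap. The Sox4 log2 fold change ran from -5.17 without Sox4cKO replicate 1 to -1.88 without Sox4cKO replicate 2. In the former fit the Olfr1217 log2 fold change, of an olfactory receptor gene read at 18.7, 9.84, 29 and 1.1 CPM, reversed from 0.06 to -3.6. Sox4 was not tested with a minimum count of 30, after subtraction or above background. With the replicate number as a block, edgeR called 0 genes, 396 had an unadjusted p under 0.05 and Sox4 was at -3.36. Deviations of same-numbered libraries from their group means correlated at 0.722 across genes. The 2 pairs come from different animals and the labels give no pairing, so whether same-numbered libraries shared handling was not tested.

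Of 611 list medians recomputed, 78 moved past their spread. Of 1661 recomputed values of 107 list genes, 276 changed sign without being called and 1 reversed. Depth limits what can be seen of low genes: 3 reads are 2.67 CPM in control replicate 1.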
